A study of Mus musculus with 4 samples.

Results

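Cd14 and the Toll-like receptors are the sensors with which myeloid cells detect microbial and damaged-cell products. They were described here in myeloid cells sorted from the mouse ankle synovium, as RNA of 10 genes out of the 32285 counted (Cd14, Tlr1, Tlr2, Tlr4, Tlr6, Tlr7, Tlr8, Tlr9, Tlr13 and Myd88) and as surface protein by 2 of 92 antibodies (CD14 and TLR4). The genes were chosen by name, with earlier results of these data known. RNA and antibody barcodes were read from the same single cells (CITE-seq) in 4 libraries, 1 for each stage of an arthritis induced with K/BxN serum, an autoantibody-rich serum from a spontaneously arthritic mouse strain. The stages were baseline on day 0, peak on day 7, plateau on day 14 and resolution on day 56. All mice were bone marrow chimeras, irradiated with the ankle shielded, in which CD45.1 donor marrow was given to CD45.2 recipients. The sort had taken CD45+ CD11b+ cells without surface Ly6G, SiglecF, CD64, MHCII, Ly6C and CD177. The titles of the peak, plateau and resolution samples also carry the tag "Clo-lip", which no label explains, so an effect of what it stands for and an effect of stage cannot be told apart. The labels do not state the number of mice behind a library.

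CD14 is a co-receptor, anchored at the surface of the cell, that hands lipopolysaccharide to the complex of TLR4 and MD-2 (gene Ly96) and also serves TLR2. TLR1 and TLR6 pair with TLR2 at the cell surface to bind bacterial lipopeptides. TLR7, TLR8, TLR9 and TLR13 sit in endosomes and sense nucleic acids, and MyD88 is the adaptor through which all of these receptors can signal. Synovial macrophages and monocytes carry these receptors, and serum-transfer arthritis is driven by immune complexes that act on such cells.

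The antibody readings rest on short DNA tags, and those of the antibodies used for protein levels and for telling donor from recipient cells are shown because every protein value below counts one of them, written 5′ to 3′.
CD14 antibody barcode: aaccaacagtcacgt
TLR4 antibody barcode: gcagttgtccgattc
CD45.1 antibody barcode: cctatggacttggac
CD45.2 antibody barcode: caccgtcattcaacc

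For the RNA, RefSeq promoter windows (250 bases before to 50 after a gene's start, GRCm38.p6) were matched for 7 of the 10 genes, which were Myd88, Tlr1, Tlr2, Tlr6, Tlr8, Tlr9 and Tlr13. Cd14, Tlr4 and Tlr7 had no entry. Both strands were searched for the NF-kB motif, the site of the factor that Toll-like receptors activate, which is in 8.46% of all 32851 windows, and for the interferon-stimulated response element (ISRE), which is in 3.44%. Tlr2 was the only one of the 7 with an NF-kB match, and Myd88 and 1 of the windows of Tlr6 held the interferon element. The windows of Tlr2 (chr3:83841559-83841858, minus strand) and Myd88 (chr9:119339969-119340268, minus strand) are shown because Tlr2 was the receptor closest to Cd14 across cell clusters and Myd88 had its highest level, among the larger clusters, in the one led by interferon-induced genes. Capitals mark the matches, which begin 173 and 172 bases (overlapping) and 8 bases before the start of Tlr2 and 40 bases before the start of Myd88.
Tlr2: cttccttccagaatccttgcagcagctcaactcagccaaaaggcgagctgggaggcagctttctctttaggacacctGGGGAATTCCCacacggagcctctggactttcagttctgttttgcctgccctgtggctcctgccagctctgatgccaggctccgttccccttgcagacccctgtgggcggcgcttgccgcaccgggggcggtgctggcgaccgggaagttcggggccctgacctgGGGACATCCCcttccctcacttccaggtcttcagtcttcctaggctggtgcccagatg
Myd88: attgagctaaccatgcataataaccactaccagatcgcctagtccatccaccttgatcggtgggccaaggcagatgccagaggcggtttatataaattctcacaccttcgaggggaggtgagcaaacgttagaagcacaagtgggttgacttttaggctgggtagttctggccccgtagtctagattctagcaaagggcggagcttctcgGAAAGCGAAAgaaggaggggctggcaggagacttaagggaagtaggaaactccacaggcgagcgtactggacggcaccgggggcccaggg

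Barcodes below 300 genes or above 10% of UMIs (unique molecule counts) from mitochondrial genes were dropped, which left 1071, 5941, 2828 and 4611 cells from baseline to resolution, with 11957871 to 58705149 gene UMIs per library and medians of 4912 to 8250 gene UMIs per cell. Any pair of libraries shared at most 9 cell barcodes. Of the genes behind the negative gate, H2-Aa (MHCII) had 554 to 1864 CPM (counts per 1000000 UMIs of the summed library) and Fcgr1 (CD64) 16.5 to 294 CPM, Ly6c2 and Ly6c1 (Ly6C) 110 to 466 and 58.4 to 74.8 CPM and Cd177 8.31 to 122 CPM, while Ly6g and Siglecf had at most 3.26 CPM. Baseline also stood apart by a summed level of 40400.3 CPM for 9 neutrophil markers, against 314 to 1632.7 CPM at the other stages. Cells formed 21 clusters, named with "-like" from RNA markers where a cluster had enough of them. Osteoclast-like cells (cluster 9, bone-resorbing giant cells, median 26467 UMIs) were 0.187%, 4.53%, 15.9% and 1.04% of cells but held 0.464%, 12.8%, 43.3% and 2.73% of all UMIs. The same cluster had low levels of Cd14 and the Toll-like receptor genes, for example 70.3 CPM of Cd14, and held 2.32% of the Cd14 UMIs at plateau. Its Myd88 was less far down, with 24.7 and 18.4 CPM in CD45.1 and CD45.2 cells at plateau. Macrophage-like cells had 39.7 and 28.0 CPM of Myd88 at plateau and 27.0 and 25.6 CPM at resolution. As each stage had 1 library, stages were compared by size with no test, and intervals are 95% intervals of counting error.

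Cd14 RNA was highest at peak. Its summed level was 813 CPM at baseline (797 to 829), 1739.8 CPM (1729 to 1751) in the peak library, then 1183 CPM (1171 to 1196) and 759 CPM (749 to 770) at the later stages, so baseline and resolution were the low libraries and peak the high one. Peak over baseline gave a ratio of 2.14 (2.10 to 2.19). Tlr2, the lipopeptide receptor, followed a flatter course with 136, 181, 129 and 85.9 CPM. Its partner Tlr1 had 3.76, 6.90, 3.89 and 1.18 CPM, and its other partner Tlr6 had 5.02, 4.94, 3.99 and 2.95 CPM. Both partners were thus lowest at resolution, as was Tlr2 itself. Tlr4, the lipopolysaccharide receptor, took a different course, with 11.5, 12.1, 13.2 and 21.2 CPM and its highest value at resolution. The endosomal receptors Tlr7 and Tlr13 had their highest value before arthritis. Tlr7 (single-stranded RNA) and Tlr13 (bacterial ribosomal RNA) were read with 37.5, 16.5, 11.02 and 22.3 CPM and with 41.7, 24.5, 18.5 and 18.9 CPM. Tlr8 had 12.96, 12.89, 4.09 and 6.98 CPM, with baseline and peak alike and plateau the lowest. Tlr9, the DNA receptor, was near the limit of detection with 14, 128, 17 and 24 UMIs, or 1.17, 2.18, 0.575 and 0.886 CPM. The adaptor gene Myd88 was highest at peak, with 46.1, 67.3, 39.4 and 36.5 CPM. In 54 barcodes with lymphoid genes, which should lack Cd14, its level was 0 to 55.5 CPM per library and Tlr2 and Tlr4 had no UMI. These barcodes held 20081 to 58857 UMIs per library, where 3 counts would be 149 to 51.0 CPM. That limit is above the Tlr4 level of every library, so the lack of Tlr4 is not informative.

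**Figure D1:**
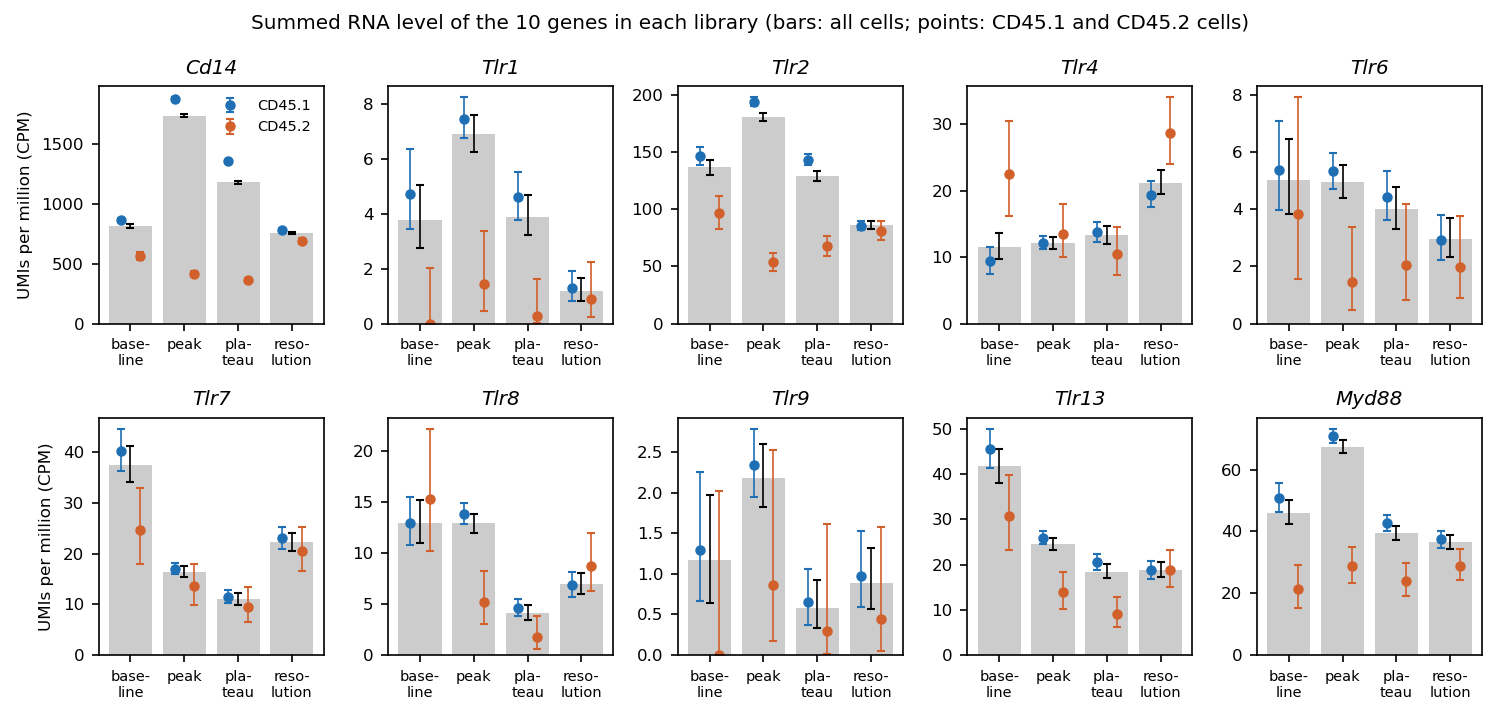
RNA level of each of the 10 genes (CPM, linear axis) in the 4 libraries; bars show all cells and points CD45.1 and CD45.2 cells, with 95% counting intervals. Cd14 reaches 1739.8 CPM at peak, Tlr4 is highest at resolution with 21.2 CPM, and at peak and plateau the CD45.2 points of Cd14, Tlr2 and Myd88 lie well below the CD45.1 points.

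With a 2-fold difference as the call, among genes with at least 30 UMIs in the pair of libraries, 2 of the 10 genes were past it in each contrast. Between peak and baseline Cd14 was higher, as were 8.52% of all 13084 genes, and Tlr7 was lower with a ratio of 0.439 (0.392 to 0.492), as were 12.6%. Between plateau and peak Tlr8 (ratio 0.317, 0.260 to 0.385) and Tlr9 (0.264, 0.149 to 0.439) were lower, against 5.07% of all 13501 genes lower and 15.1% higher. Between resolution and plateau Tlr1 was lower (0.304, 0.199 to 0.453; background 10.5% lower) and Tlr7 just past 2-fold higher (2.02, 1.76 to 2.32; background 13.4% higher). Between resolution and baseline Tlr1 (0.314, 0.193 to 0.505) and Tlr13 (0.453, 0.400 to 0.513) were lower, against 5.61% of all 12658 genes lower and 11.8% higher. The 4 contrasts share libraries. When the totals were scaled by edgeR's TMM factors, the genes past 2-fold split into 1412 higher and 1285 lower between peak and baseline (1115 and 1655 without the factors), 1200 and 1029 between plateau and peak (2033 and 684), and 1148 and 862 between resolution and baseline (1491 and 710). The median log2 ratio of the 10 genes was 0.24, -0.57, -0.04 and -0.71 in this order, beside -0.13, 0.30, 0.06 and 0.18 for all genes (0.07, 0.05, -0.03 and 0.04 with the factors).

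These stage ratios moved with the cells in the sums. Without the osteoclast-like cluster the plateau over peak log2 ratio of Cd14 was 0.04 instead of -0.56 and that of Tlr2 was 0.10 instead of -0.49, and Tlr8 (-1.09) and Tlr9 (-1.35) remained past 2-fold lower. Between resolution and plateau the same exclusion left Cd14 at -1.39, Tlr1 at -2.46, Tlr2 at -1.33 and Tlr6 at -1.10, and Tlr7 at 0.26 instead of 1.01. The 9 osteoclast markers had summed levels of 105, 5212, 21759.6 and 917 CPM in the 4 libraries, with Oscar and Calcr at 0 at baseline. Whether composition sets the stage ratios was not tested beyond these exclusions. With equal weight to each cluster that had at least 20 cells in both libraries, no gene was past 2-fold between peak and baseline, where the log2 ratio of Cd14 was 0.51 and that of Tlr7 was -0.24. Tlr7 between resolution and plateau then turned to -0.45.

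Where in the sort the receptors were read is a description, since the clusters were made from the same RNA. The order of clusters is given among the 13 with at least 100 cells that were not shallow. Of the smaller ones, the neutrophil-like cluster 19 (25 cells, 67428 UMIs) had 4538 CPM of Cd14 (4044 to 5076), 74.2 CPM of Tlr4 (24.1 to 173, 5 UMIs) and 133 CPM of Myd88 (61.0 to 253, 9 UMIs). Among the 13, Cd14 was highest in cluster 4, unnamed and led by Cxcl3, Cxcl2 and Il1rn (chemokines and the interleukin-1 receptor antagonist), with 4077 CPM over all libraries. The 3 classical monocyte-like clusters had 2253, 1964 and 1463 CPM, and cluster 3 (MHCII genes and Ifit3) and cluster 6 (Spp1, Cav1, Arg1) had 1562 and 1496 CPM. Macrophage-like cells had 950.2 CPM, nonclassical monocyte-like cells 207 CPM, fibroblast-like clusters 146 and 32.9 CPM and osteoclast-like cells 70.3 CPM. Cluster 4 was absent at baseline and resolution (0 of 1071 and 0 of 4611 cells, which allows shares of up to 0.280% and 0.0651%), and it held 13.1% of cells and 29.7% of Cd14 UMIs at peak and 16.3% of cells and 43.6% of Cd14 UMIs at plateau. Within clusters Cd14 also differed between libraries: macrophage-like cells had 631, 1079, 1472 and 954 CPM, and the classical monocyte-like cluster 2 had 1171, 1795, 2060.3 and 1145 CPM, both highest at plateau rather than at peak.

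Tlr2 had its highest level in the same cluster 4 (373 CPM) and its lowest in osteoclast-like cells (8.11 CPM). Tlr1 was highest in cluster 3 (13.7 CPM) and was read in macrophage-like cells and in cluster 5 (Ccl17, Mgl2, Mmp12) at only 0.589 and 0.104 CPM. Tlr6 varied little among the monocyte-like clusters, from 4.07 to 8.09 CPM with overlapping intervals. Among the same 13 clusters Tlr4 was highest outside the monocytes: cluster 6, cluster 5 and the macrophage-like cells had 28.5, 28.3 and 28.2 CPM, which do not differ beyond counting error, while the classical monocyte-like clusters had 11.9 to 16.6 CPM and nonclassical monocyte-like cells 6.40 CPM. Macrophage-like cells had 23.4, 51.2, 27.3 and 27.5 CPM of Tlr4 in the 4 libraries.

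The endosomal receptors were distributed otherwise. Nonclassical monocyte-like cells, the patrolling kind, had 102 CPM of Tlr7 and 93.0 CPM of Tlr13, against at most 34.6 and 39.5 CPM in any other cluster of at least 100 cells. Both values were alike in the 2 libraries that held at least 50 of these cells, with 106 and 104 CPM of Tlr7 and 105 and 87.2 CPM of Tlr13 at baseline and resolution. These cells were 21.0% of the library at baseline, 0.370% at peak, 0.424% at plateau and 12.3% at resolution, and Tlr7 too was higher in the baseline and resolution libraries. Tlr13 was not, with 18.9 CPM at resolution against 24.5 CPM at peak and 18.5 CPM at plateau. Tlr9 and Tlr8 were highest in the classical monocyte-like cluster 12, led by Cxcl10, Rsad2 and Ifit genes, with 8.14 CPM (24 UMIs) and 24.4 CPM. That cluster, of which 278 of 286 cells were from peak, also had the highest Myd88 of the 13, 124 CPM, against 68.5 and 81.1 CPM in the other 2 classical monocyte-like clusters. Tlr9 had no UMI in 828 nonclassical monocyte-like cells (3 counts would be 1.01 CPM).

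**Figure D2:**
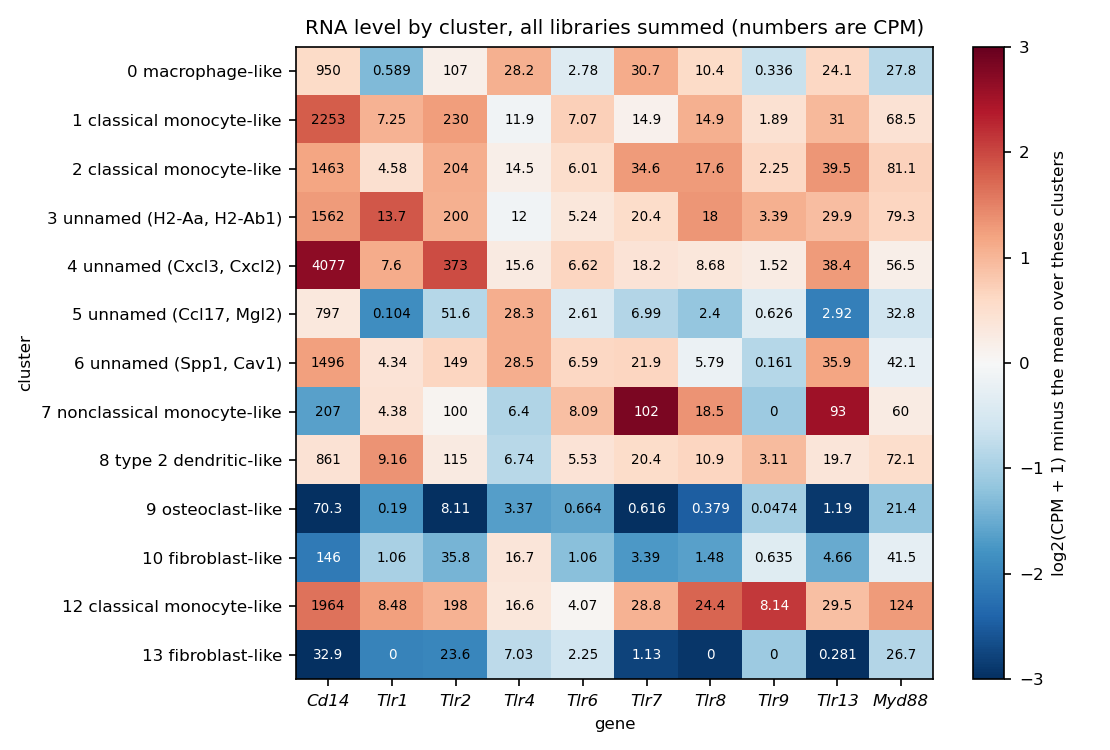
RNA level of the 10 genes in the 13 clusters with at least 100 cells and sufficient depth, all libraries summed; numbers are CPM and colours the log2(CPM + 1) difference from the mean over these clusters. Cd14 and Tlr2 are highest in cluster 4, Tlr7 and Tlr13 in nonclassical monocyte-like cells, and Tlr4 in clusters 0, 5 and 6 among these clusters. Osteoclast-like cells are low in Cd14 and the receptors.

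Across 34 sums of 1 cluster in 1 library (at least 50 cells each, Pearson's r of log2(CPM + 10), 2872 genes with a mean of at least 50 CPM), the genes closest to Cd14 were Ctsc (r = 0.92), Fcgr3 (0.92), Tlr2 (0.89), Ninj1 (0.88) and Mcl1 (0.88). Those closest to Tlr2 were Cd86 (0.91), Fcgr3, Cd14, Ctsc and Gm6377. Tlr4 ran closest to Tnfsf12 (0.81), Ahnak, Adam15, Tppp3 and Maf, and Tlr7 to Cx3cr1 (0.88), a nonclassical monocyte marker, Pilra, Hfe, Cd300ld and Rap1a. Myd88 ran closest to the genes Ms4a4c (0.86), Samhd1, Slfn1, Ifi209 and Sp110. The points share 4 libraries and the clusters were built from the same genes, so these values describe likeness alone.

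The CD14 antibody differed between libraries far more than the RNA. Its mean was 1.89 UMIs per cell at baseline, 38.0 at peak, 41.0 at plateau and 2.37 at resolution, with medians of 0, 6, 5 and 1. At baseline this was close to the antibodies to the lymphoid proteins CD138, CD3 and CD8a, with means of 1.76, 1.38 and 1.16. At resolution CD8a read 2.09, CD3 0.441 and CD138 0.388. At peak and plateau none of these was above 0.581. A small number of cells held most of the antibody UMIs: 0, 354, 259 and 6 cells had at least 100 CD14 UMIs, and they held 73.1% of the CD14 UMIs at peak and 78.0% at plateau. Without them the means were 1.89, 10.9, 9.93 and 2.13, and plateau over peak turned from 1.08 to 0.913. Total antibody depth differed too, with medians of 970, 806, 629 and 365 UMIs per cell. At peak and plateau the median stood at 2 to 8 UMIs in the clusters of at least 50 cells other than 0, 4 and 6, fibroblast-like cells with little Cd14 RNA included.

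CD14 protein and Cd14 RNA were highest in different cells. Of the cells with at least 100 CD14 UMIs, 54.2% at peak and 66.8% at plateau were in cluster 6, whose mean was 226 and 115 UMIs per cell beside 1677 and 1401 CPM of Cd14. Cluster 4, with 4116 and 4002 CPM, had means of 52.1 and 30.3 antibody UMIs. Within cluster 6 at peak, cells past 100 CD14 UMIs had 2047 CPM of Cd14 and the others 1407, whereas at plateau they had 1346 and 1427. Cells past 100 also read more of other antibodies: at peak their medians were 42.5 UMIs for CD80, 115 for CD86 and 306 for CD11b, against 5, 18 and 242 in the other cells, while CD45.1 read 26.5 against 29. The part of overall antibody uptake in this was not tested. Across single cells the rank correlation between Cd14 UMIs and CD14 antibody UMIs, both scaled per cell, was 0.09, 0.15, 0.09 and 0.12 in the 4 libraries. Within clusters it was 0.38 in cluster 4 and 0.22 in cluster 6 at peak, 0.15 and 0.03 in the same clusters at plateau, and -0.19 in cluster 3 at plateau. These values describe cells that share a library.

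**Figure D3:**
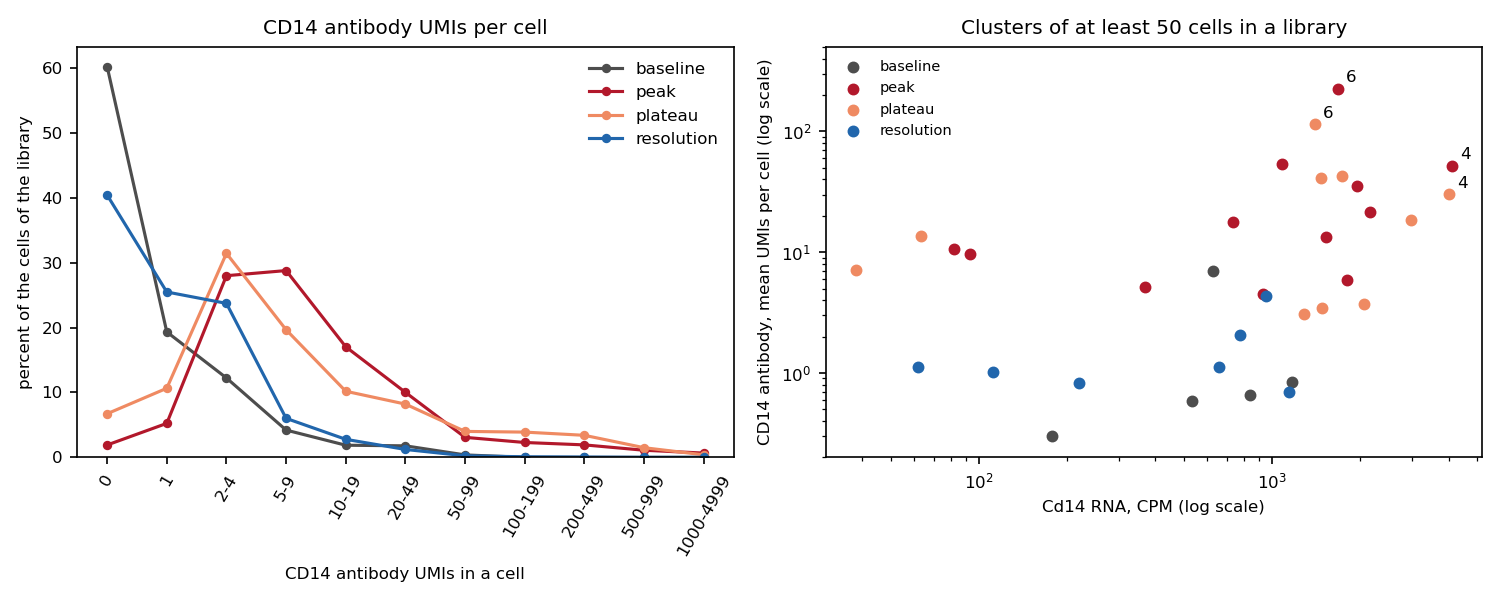
Left, share of the cells of each library (percent) by CD14 antibody UMIs per cell; right, mean CD14 antibody UMIs per cell against Cd14 RNA (both log axes) for clusters of at least 50 cells in a library, with clusters 4 and 6 numbered at peak and plateau. Peak and plateau have a tail past 100 UMIs, and cluster 6 lies above cluster 4 in protein while lying below it in RNA.

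TLR4 protein could not be read at the level of single cells. The TLR4 antibody had no UMI at baseline, as was so for 5 of the 92 antibodies (TLR4 included) that were read at the other stages, so baseline has no TLR4 value. Its mean was 0.798, 0.461 and 1.08 UMIs per cell at peak, plateau and resolution, inside the range of 0.182 to 2.09 UMIs per cell that the antibodies to the lymphoid proteins CD3, CD8a and CD138 gave over the 3 libraries. Macrophage-like cells, among the clusters highest in Tlr4 RNA, had the highest mean at peak (3.62 UMIs, 82 cells), where the other clusters of at least 50 cells had 0.353 to 0.936. They also had the highest mean at plateau, 1.06, and at resolution, 1.37. Single-cell rank correlations with Tlr4 UMIs were 0.04 at peak and at plateau.

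Donor and recipient cells were compared next, by the CD45 variant on their surface. A cell counted as CD45.1 or CD45.2 when the log2 ratio of the 2 antibodies' UMIs, each plus 1, was at least 1 or at most -1, which gave 808 and 190 cells at baseline, 5576 and 219 at peak, 2402 and 239 at plateau and 3249 and 730 at resolution. Another 73 to 632 cells per library were neither. Cd14 had 866, 1880.4, 1356 and 785 CPM in CD45.1 cells and 562, 415, 362 and 691 CPM in CD45.2 cells, so CD45.1 cells were higher in each library. CD45.1 cells were also higher in each library for Myd88, with 50.8, 70.9, 42.8 and 37.4 against 21.4, 28.8, 24.1 and 28.9 CPM. For Tlr2 the values were 146, 194, 143 and 85.4 CPM in CD45.1 cells and 96.5, 53.6, 67.6 and 81.2 CPM in CD45.2 cells. Within each library CD45.1 cells were again higher, though at resolution not beyond counting error (ratio 1.05, 0.939 to 1.18). Tlr4 went the other way at baseline (9.34 against 22.5 CPM) and resolution (19.4 against 28.7 CPM) and was similar at peak (12.2 against 13.5 CPM) and plateau (13.8 against 10.4 CPM).

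In edgeR's quasi-likelihood test with the library as a term and the 4 libraries as replicates, 7 of the 9 genes tested were higher in CD45.1 cells at an adjusted p (Benjamini-Hochberg, over all genes) under 0.05. Over all 12556 genes 20.7% were called, 11.1% higher and 9.59% lower (1393 and 1204 genes, but 832 and 1796 without TMM factors, which moved the median of all genes to -0.26 and left 2 of the 10 called). Cd14 was higher by a log2 fold change of 1.495 ± 0.38 (SE, adjusted p = 0.0333, higher in 4 of 4 libraries), and Tlr2 by 1.17 ± 0.31 (adjusted p = 0.0383, 4 of 4). The lipopeptide partners Tlr1 (2.75 ± 0.63) and Tlr6 (1.27 ± 0.34) were also higher, with adjusted p = 0.0254 and 0.0427, though the CD45.2 cells of a library held only 0 to 5 UMIs of Tlr1 and 5 to 9 of Tlr6. Of the endosomal receptors Tlr7 (0.64 ± 0.18, adjusted p = 0.0481, 4 of 4 libraries) and Tlr13 (0.92 ± 0.23, adjusted p = 0.0314, 3 of 4) were called, and Tlr8 was not (0.73 ± 0.38, adjusted p = 0.207, 2 of 4). Myd88 was higher by 1.19 ± 0.22 (adjusted p = 0.0130, 4 of 4 libraries). Tlr4 was not called, with -0.12 ± 0.25 (adjusted p = 0.762), and Tlr9 had too few UMIs for the test. The replicates of this test are libraries of different stages, so its spread holds any difference between stages.

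The variants also differed in the kinds of cells they held. Macrophage-like cells were 80.0%, 28.3%, 30.5% and 67.8% of CD45.2 cells and 3.59%, 0.287%, 2.16% and 25.8% of CD45.1 cells, and osteoclast-like cells were 28.3% and 26.8% of CD45.2 cells at peak and plateau against 3.53% and 15.8% of CD45.1 cells. All 15 macrophage markers were detected in both variants of each library, except Timd4 in CD45.1 cells of plateau, with summed levels of 3749 to 22567 CPM in CD45.2 cells and 654 to 7014 CPM in CD45.1 cells. The 7 fibroblast markers had 2756 to 10076 CPM and 761 to 2285 CPM. Equal numbers of both variants were then drawn from each cluster with at least 5 cells of both in a library. This gave 40 to 708 cells of each per library. At baseline only macrophage-like cluster 0 and fibroblast-like cluster 10 met this limit, so no monocyte-like cells entered. At plateau clusters 1 to 4 were left out, with 2 to 4 CD45.2 cells each. In this draw none of the 7 genes still tested was called, nor were more than 0.934% of 11345 genes. At an unadjusted p under 0.05 there were 1320 genes, Cd14 the only one of the 7 among them. The log2 fold changes then were 0.40 for Cd14 (adjusted p = 0.0761), 0.33 for Myd88, -0.03 for Tlr2, -0.15 for Tlr4, -0.17 for Tlr7, -0.13 for Tlr8 and -0.39 for Tlr13, and Tlr1 and Tlr6 had too few UMIs. The count of 7 was 0 to 5 when 1 library was left out (0 without peak, 1 without baseline, 1 without plateau and 5 without resolution) and 4 without the osteoclast-like cluster.

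Within single clusters the ratios went either way. Among macrophage-like cells the CD45.1 over CD45.2 ratio of Cd14 was 0.925 (0.772 to 1.10) in the baseline library, 1.15 (1.02 to 1.29) in the plateau library and 1.39 (1.33 to 1.46) in the resolution library, so the CD45.1 cells were higher beyond counting error in the last 2. Cd14 was at 0.920 (0.798 to 1.07) in the classical monocyte-like cluster 2 and 1.03 (0.941 to 1.14) in cluster 5 at resolution. In osteoclast-like cells it was at 1.20 (0.996 to 1.46) at peak and 0.707 (0.596 to 0.842) at plateau. The fibroblast-like clusters had ratios of 3.12 (1.54 to 6.96, cluster 10 at resolution) and 5.52 (2.62 to 13.4, cluster 13 at plateau), on 10 and 8 Cd14 UMIs in CD45.2 cells. Tlr2 in macrophage-like cells had a ratio of 0.336 (0.151 to 0.655, 9 UMIs in CD45.1 cells) at baseline. It was 0.590 (0.410 to 0.838) at plateau and 1.14 (0.973 to 1.33) at resolution. Tlr4 was at 27.2 and 26.5 CPM in the 839 CD45.1 and 495 CD45.2 macrophage-like cells of resolution. In cluster 5 at resolution it was at 25.2 CPM in 988 CD45.1 cells and 61.6 CPM in 68 CD45.2 cells, a ratio of 0.409 (0.286 to 0.597).

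**Figure D4:**
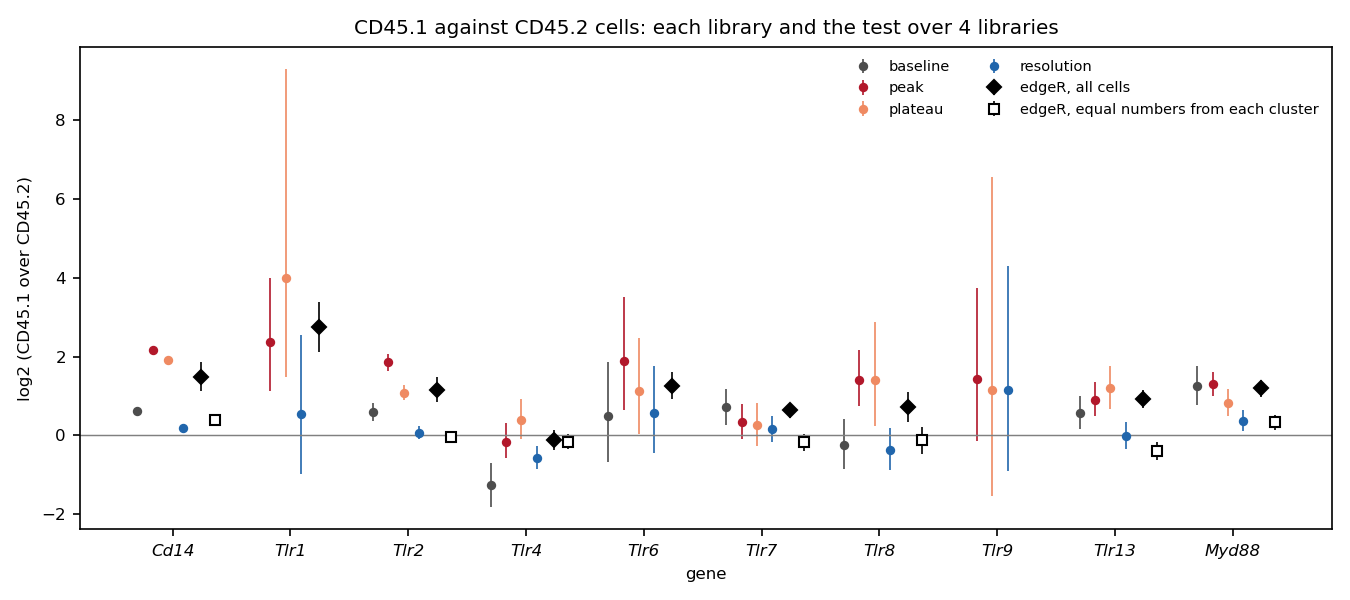
Log2 ratio of CD45.1 over CD45.2 for each gene: small points are single libraries with 95% counting intervals (a library with no UMI in CD45.2 cells is left out), black diamonds the edgeR estimate over 4 libraries with all cells and open squares the estimate with equal numbers of both variants drawn from each cluster, both with standard errors. The diamonds of 7 genes are called higher, and none of the squares is called. The draw used clusters with at least 5 cells of both variants in a library.

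Of 51 other genes of the pathway found in the files, 49 were tested between the variants, and 19 were higher and 1 lower in CD45.1 cells, beside 11.1% and 9.59% of all genes. Their median log2 fold change was 0.45, and 29 were not called. Among adaptors and kinases 7 of 17 were higher, for example Irak4 (0.78), the kinase that MyD88 recruits, Irak2 (1.22) and Ticam2 (0.90), an adaptor of TLR4. The others were Ikbke (1.51), Ikbkb (1.06), Ticam1 (0.83) and Chuk (0.52). Of the 5 transcription factors 3 were higher, led by Irf7 (2.12, adjusted p = 0.00762), with Irf5 (1.56) and Nfkb1 (0.63). Among co-receptors and chaperones, Unc93b1 (1.20), which brings the endosomal receptors to their place, Cnpy3 (0.74), a folding chaperone of these receptors, and Ly86 (1.35), the partner of Cd180, were higher, and Cd36 (-1.41, adjusted p = 0.00953), a scavenger receptor that works with TLR2, was the one gene lower. Ly96, which encodes the MD-2 subunit of the TLR4 complex, was at 0.06 (adjusted p = 0.856). Inhibitors were called in 2 of 10 cases (Irak3, 1.24, and Trafd1, 1.27), and other sensors in 4 of 5, with Nlrp3 at 2.38, Nod2 at 2.09, Clec4e and Cgas. Of the other receptors, Tlr3 (-0.68, adjusted p = 0.136) and Tlr5 (2.62, adjusted p = 0.0638) were not called, and Tlr11 and Tlr12 had too few UMIs. These 51 genes were not retested with equal numbers from each cluster.

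Between stages, 42 of the 49 pathway genes with enough UMIs stayed within 2-fold from baseline to peak. Of the 49, 3 were higher and 4 lower, beside 8.52% and 12.6% of all genes. The median log2 ratio of the 49 was -0.13, the same as that of all genes. Tlr5, the flagellin receptor, was 4.22 times as high at peak as at baseline (2.80 to 6.65, 24 UMIs at baseline). Clec4e, a C-type lectin sensor, was 3.30 times as high (3.16 to 3.45) and Nfkbia, an inhibitor that NF-kB itself induces, 2.47 times (2.41 to 2.54). Cd36 had 155, 39.4, 102 and 339 CPM, lowest at peak and highest at resolution, opposite to Cd14. Irf7, an interferon-induced factor, had 221 CPM at peak and 56.0 at plateau, a ratio of 0.253 (0.240 to 0.266). From peak to plateau 2 of 49 pathway genes were past 2-fold higher and 5 lower, beside 15.1% and 5.07% of all genes. From plateau to resolution the counts were 6 and 2 of 50, beside 13.4% and 10.5%. From baseline to resolution they were 7 and 5 of 50, beside 11.8% and 5.61%. Between plateau and resolution Sigirr, a receptor that dampens Toll-like signals, was 4.60 times as high (3.43 to 6.25). Between the same libraries Nod1 was 2.50 times as high (1.93 to 3.26) and Ikbke 0.339 times (0.248 to 0.457). Il1rl1, listed among the inhibitors, was 4.74 times as high at plateau as at peak (3.77 to 5.99). From baseline to resolution Il1rl1 was 4.31 times as high (3.24 to 5.85) and Ikbke 0.264 times (0.187 to 0.369). Tlr11 had 39 UMIs at resolution, 5 at baseline and none at plateau.

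The stage course itself differed between the variants. In CD45.1 cells Cd14 was 2.17 times as high at peak as at baseline (2.12 to 2.22), and in CD45.2 cells it was 0.739 times (0.681 to 0.801). From plateau to resolution the ratios were 0.579 (0.568 to 0.590) and 1.91 (1.79 to 2.04). Tlr2 showed the same opposition, with 1.33 (1.25 to 1.41) and 0.556 (0.450 to 0.687) from baseline to peak. Tlr4 was at 1.30 (1.04 to 1.65) in CD45.1 cells and 0.603 (0.388 to 0.940) in CD45.2 cells. Over the same libraries the osteoclast markers in CD45.2 cells went from 339 to 19192 CPM between baseline and peak, and in CD45.1 cells from 59.1 to 4377 CPM. The difference between the variants' courses was not tested, as each stage had 1 library. For the CD14 antibody the variants were apart at baseline and closer later: means in CD45.1 and CD45.2 cells were 1.14 and 5.35 UMIs at baseline, 37.9 and 44.3 at peak, 43.7 and 39.3 at plateau and 2.38 and 2.49 at resolution, with medians of 0 to 7. Of the cells past 100 CD14 UMIs, 93.8% at peak and 93.1% at plateau were CD45.1, as were 93.9% and 84.9% of all cells.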

How the data were processed

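The deposited values are raw UMI counts per gene and per antibody for each cell barcode. Per the submitters' processing notes, Cell Ranger 6.1.2, Seurat 4.4.0 and the mm10 build were used, and no label states a cell filter by the authors. The genes, lists and comparisons were chosen with earlier results of these data known. Doublets were not removed, since Scrublet called 5, 0, 3 and 0. Its highest 6% of scores were left out as an alternative. For clustering, log values of counts per 10000 UMIs were used, with 2000 variable genes, 30 components and 15 neighbours (scanpy 1.11.5, leidenalg 0.10.2, resolution 0.8), with no integration. A cluster took a name from at least 3 markers and at least 50% of a list. Stage levels are UMI sums per 1000000 (CPM), a normalization not made by the authors, with ratios under exact binomial (Clopper-Pearson) and levels under exact Poisson 95% intervals, which cover counting error alone. The limit for a count of 0 is 3 counts. CD45.1 and CD45.2 sums (8 in all) were tested with edgeR 4.0.16 (filterByExpr, TMM, library term). On simulated counts of 12556 genes it recovered 46% of 2-fold and 93% of 4-fold changes. Those counts had a common dispersion for all genes and no difference between stages. The recovery therefore does not carry over to genes whose variant ratio changed between libraries, such as Cd14. DESeq2 1.42.0 was an alternative. The genes named are the 10 of the opening, in each pathway role the gene with the largest stage ratio, those called between the variants, the other receptors and the 5 closest genes of 5 of the 10. Ly96 was named after its value was seen. The equal-number draw and the exclusions of single kinds of cells or of cells past 100 CD14 antibody UMIs were chosen after seeing the data.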

Additional observations from a re-analysis of the deposited data

Results flagged for a closer look

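Differences between the variants or stages in opposite directions were singled out, none of them tested, as each stage had 1 library. The CD45.1 over CD45.2 ratio of Tlr4 was 1.32 at plateau and 0.415 at baseline, that of Tlr8 was 2.67 at peak and 0.781 at resolution, and that of Tlr13 was 2.29 at plateau and 0.997 at resolution. Cd14 between peak and baseline had a ratio of 2.17 in CD45.1 cells and 0.739 in CD45.2 cells. For Cd14 the same pair of values was 0.579 and 1.91 between resolution and plateau, and 0.906 and 1.23 between resolution and baseline. Tlr2 had 1.33 and 0.556 between peak and baseline, 0.738 and 1.26 between plateau and peak, and 0.597 and 1.20 between resolution and plateau. Tlr4 had 1.30 and 0.603 between peak and baseline.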

How the results depend on the processing

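For CD45.1 against CD45.2, the 7 genes called became 2 at a CD45 log2 ratio past 2 either way (1798 of all genes). With at least 10 CD45 antibody UMIs there were 2 (1711), and without the top 6% of Scrublet scores 4 (2353). Monocyte-, macrophage- and osteoclast-like clusters alone gave 3 (1498), and leaving out osteoclast-like cells 4 (3690). There were 2 without TMM factors (2628), 0 without the library term (513) and 0 with equal numbers from each cluster (106). Leaving out 1 library gave 0 to 5 of the 10 genes and 1047 to 2082 of all genes. DESeq2 called 3139 genes, among them the same 7 except Tlr7, as did edgeR without fibroblast-like cells (2050 genes). With no filter beyond 1 UMI in the sums, all 7 stayed called (2976 genes). With equal numbers Tlr2 (-0.032), Tlr7 (-0.17), Tlr8 (-0.13) and Tlr13 (-0.39) turned in direction, and Tlr4 ranged from -0.34 (without plateau) to 0.087 (without baseline) when 1 library was left out. Tlr4 was at -0.48 without osteoclast-like cells (unadjusted p = 0.0457, adjusted p = 0.111 in edgeR), -0.39 without TMM factors and -0.35 in the monocyte-, macrophage- and osteoclast-like clusters. No paired analysis was possible beyond this library term because each library gave 1 sum per variant and each stage had 1 library.

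Of the 2 genes past 2-fold in each stage contrast, equal weight to each cluster left 0, 0, 1 and 0, from peak against baseline to resolution against baseline. Without osteoclast-like cells there were 4 between peak and baseline and 4 between resolution and plateau. TMM totals gave 4 between plateau and peak (all genes: 1200 higher and 1029 lower of 13501). They gave 1 between resolution and plateau (1597 and 1567 of 13291), and turned Tlr4 between plateau and peak from 0.13 to -0.13. CD45.2 cells alone gave 0 between plateau and peak, 4 between resolution and plateau and 0 between resolution and baseline, and Cd14 between peak and baseline at -0.44. Monocyte-, macrophage- and osteoclast-like clusters alone gave 9, 4 and 1 in the last 3 contrasts, with Tlr1 between resolution and plateau at 0.40. Between resolution and plateau a stricter cell filter and leaving out fibroblast-like cells each gave 1, and Tlr7 was at -0.45 with equal cluster weights. Apart from TMM totals, the share of all genes past 2-fold was not counted in these settings. Their counts are therefore no result about these genes in particular.

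Per 10000 antibody UMIs the CD14 ratios were 37.8 (peak over baseline), 0.0999 (resolution over plateau) and 4.99 (resolution over baseline), and that of TLR4 was 4.04 (resolution over plateau). Without cells past 100 CD14 UMIs they were 5.76, 0.913 for plateau over peak, and 0.214 for resolution over plateau. The causes were not tested. At baseline the mean of CD14 was near that of CD138 (1.76), and at resolution near that of CD8a (2.09), both lymphoid proteins. Stages have 1 library each, so no stage difference has a replicate check, and Tlr1, Tlr6 and Tlr9 are limited by depth.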
